A study of Homo sapiens with 18 samples.

Results

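PaTu 8988T is a human cell line from a metastasis of a pancreatic adenocarcinoma, and the data described are its transcriptome with and without an inducible short hairpin RNA against OFD1. Genes were taken from the columns of this line in a table of 26668 gene symbols, and the 10698 with a mean of at least 1 FPKM over its 6 libraries were tested. FPKM is the number of reads counted on a gene, scaled by the gene's length and by the reads of the library. The knockdown group held 3 libraries of PaTu 8988T cells carrying a Tet-on shRNA against OFD1, sampled after 72 h of doxycycline. The control group held 3 libraries, which the labels call shControl, wild type by genotype and without treatment. The study's methods describe the controls as the same inducible cells given DMSO, and the series text places controls at day 0 and knockdown at day 3. Doxycycline, time in culture and any difference between separately made cells therefore cannot be told apart from loss of OFD1 in every comparison that follows. The cell line field names PaTu 8989T and PaTu 8990T for replicates 2 and 3 of both groups, while all titles name PaTu 8988T. No label says that replicates came from separate cultures, so p-values measure the spread between these libraries, which may be technical.

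The whole series held 18 libraries, 6 from each of 3 pancreatic cancer lines (PaTu 8988T, PANC-1 and MIA PaCa-2), all grown in DMEM with serum. Libraries of PaTu 8988T held between 34724763 and 37047870 counted reads, and the other lines between 32486479 and 39797537, as recovered from the values themselves. Keratin genes KRT18 and KRT8 were high in PaTu 8988T, at 581.9 to 586.0 and 457.7 to 483.0 FPKM in the controls. KRT19 was at or below 0.0194 FPKM in all 6 libraries, KRT7 at or below 0.478 and E-cadherin (CDH1) at or below 0.378, whereas vimentin (VIM) was at 767.6 to 799.7 FPKM in the controls. Of 10 ductal and epithelial markers, 5 passed the filter, their defining members KRT7, KRT19, CFTR and CDH1 did not, and the summed level was 1060 to 1080 FPKM in controls and 843 to 915 in knockdown libraries. All 10 acinar, all 6 endothelial and all 6 hepatocyte markers lay under the filter, and so did 8 of 9 leukocyte, 8 of 9 fibroblast and stellate and 6 of 7 endocrine markers. The leukocyte sum, 13.7 to 14.0 FPKM in controls and 9.88 to 11.8 in knockdown libraries, was carried by CD68, with CD3E, MS4A1, LYZ and NKG7 at 0 in all 6 libraries.

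OFD1 encodes a protein of centrioles and centriolar satellites that is needed to build primary cilia. Cells adjust oxygen and glucose use through hypoxia-inducible factors, which bind a short element in promoters of glycolytic enzymes, glucose transporters and matrix-modifying enzymes. Shortage of amino acids and other stresses act through phosphorylation of eIF2 and the transcription factor ATF4, which drives genes of amino acid supply, tRNA charging and redox balance. The DREAM complex represses genes needed for DNA replication and mitosis in resting cells.

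OFD1 (Entrez gene 8481, chrX:13714505-13773738 in GRCh38.p14) was read at 2.14, 1.93 and 2.12 FPKM in the controls and at 0.986, 0.894 and 0.854 in the knockdown libraries. These values rest on 635 to 735 reads per control and 289 to 339 per knockdown library, and the groups did not overlap. OFD1 fell by 1.10 ± 0.10 on the log2 scale (SE, adjusted p = 5.466e-05, limma), and an exact two-sided permutation test gave p = 0.1, the smallest that 3 libraries against 3 allow. The OFD1 that remained was 0.467 of the control level on the FPKM + 0.1 scale. BRCA1, the homologous recombination gene on which the study centred, was at 4.593, 4.730 and 4.396 FPKM in controls and 1.89, 1.86 and 1.97 after knockdown. Its groups did not overlap, and it fell by 1.22 ± 0.07 (SE, adjusted p = 3.758e-06).

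The response of PaTu 8988T was small in most genes and leaned downwards among the large changes. At an adjusted p below 0.05 and a change of more than 2-fold, 17 of 10698 genes were higher (0.159%) and 90 were lower (0.841%) after knockdown. By adjusted p alone, 2235 genes were higher (20.9%) and 1981 were lower (18.5%), and the first count was 1461 without control replicate 2. The median log2 fold change over all genes was 0.03, with quartiles of -0.13 and 0.15. Libraries of the 2 groups did not overlap for 5547 genes (51.9% of those tested), and for all 17 higher and 89 of the 90 lower genes. Just inside the fold limit lay TMEM102 and P4HA2 at log2 fold changes of -1.01, and LOC105373193 at 1.04 and ANKRD1 and SLPI at 1.07. Just outside lay JAG2 and ARSJ at -0.997 and -0.996 and DKK1, an inhibitor of Wnt signalling, at 0.96. Most of these genes were expressed at low levels, with a control mean under 5 FPKM for 14 of the 17 higher and 54 of the 90 lower genes.

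**Figure D1:**
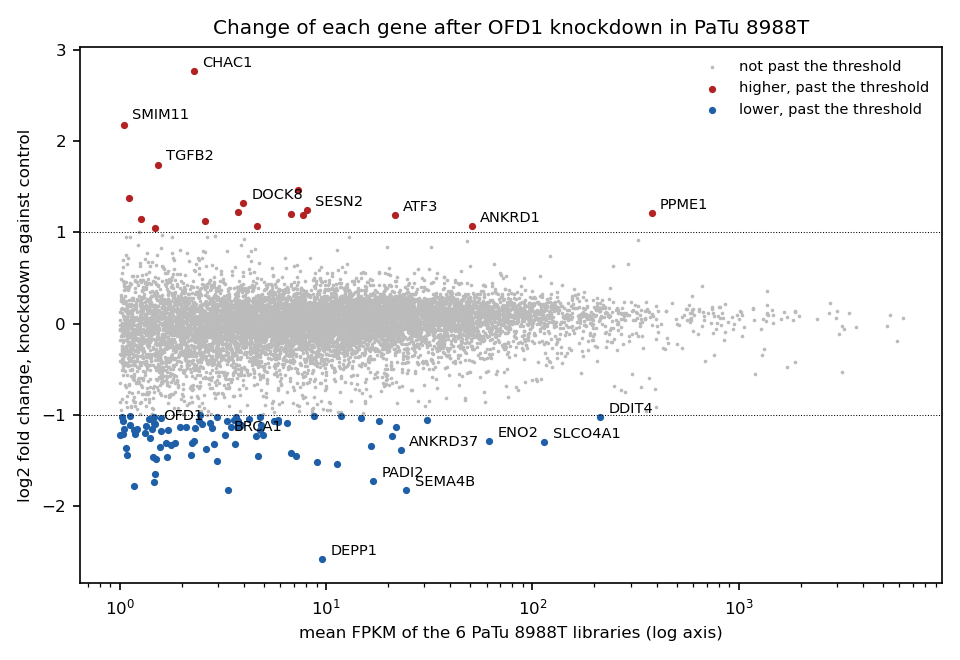
Mean FPKM of the 6 PaTu 8988T libraries (x, log axis) against the log2 fold change of knockdown over control (y) for the 10698 genes tested, with the 17 higher genes in red, the 90 lower genes in blue and dotted lines at a 2-fold change. Points past the lines are few, the lower ones outnumber the higher ones, and PPME1 and DDIT4 lie past them at high expression.

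CHAC1 rose most of all genes, and 4 of the 17 higher genes, CHAC1 included, are targets of ATF4. CHAC1, an enzyme that breaks down glutathione and a target of ATF4, was at 0.490, 0.527 and 0.519 FPKM in controls (110, 113 and 117 reads) and at 3.88, 4.07 and 4.24 in knockdown libraries (870, 859 and 936 reads). The groups were far apart, and the log2 fold change was 2.76 ± 0.09 (SE, adjusted p = 2.189e-07), or 6.79-fold on the FPKM + 0.1 scale. SESN2, a leucine sensor that restrains mTORC1, was at 4.49, 4.59 and 5.17 FPKM in controls and 10.6, 11.8 and 11.7 after knockdown. ATF3, a stress-induced transcription factor, was at 12.5, 13.9 and 13.0 FPKM in controls and 28.9, 32.2 and 29.1 after knockdown. Neither gene had overlapping groups, and their log2 fold changes were 1.24 ± 0.07 and 1.19 ± 0.06 (SE, adjusted p = 3.185e-06 and 1.744e-06). PCK2, the mitochondrial enzyme that makes phosphoenolpyruvate, had a control mean of 0.761 FPKM and a knockdown mean of 1.79 (SD 0.13 and 0.09, n = 3 each).

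Of 43 tested targets of ATF4 and the integrated stress response, 27 rose and 3 fell by adjusted p (62.8% and 6.98%). Among all genes 20.9% rose and 18.5% fell. The list had a median log2 fold change of 0.27 against 0.03 for all genes. Past 2-fold were CHAC1, SESN2, ATF3 and PCK2 upwards and DDIT4 downwards. DDIT3, the CHOP transcription factor, rose from 22.8, 23.0 and 23.3 FPKM to 41.3, 41.4 and 41.2, a log2 fold change of 0.84 ± 0.04 (SE). SLC7A5, a leucine importer, rose by 0.90 and PSAT1, an enzyme of serine synthesis, by 0.55 on the log2 scale. ATF4 mRNA itself, named after its values were seen, was at 35.2 to 35.8 FPKM in controls and 43.9 to 45.9 after knockdown (log2 fold change 0.34, adjusted p = 0.0001188). TRIB3, also chosen after its values were seen, had a log2 fold change of -0.08 that did not pass the test, and ASNS, the asparagine synthetase, lay under the filter at 0.0526 to 0.117 FPKM in controls and 0.460 to 0.588 after knockdown. Cytosolic aminoacyl-tRNA synthetases, which charge tRNAs and include ATF4 targets, rose for 14 of 23 members and fell for 1 (60.9% and 4.35%). MARS1 stood at 0.50, YARS1 at 0.35, CARS1 at 0.49 and GARS1 at 0.41. Of 25 tested targets of p53, 14 rose and 1 fell (56.0% and 4.0%, median 0.20), led by SESN2, which both lists hold.

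The promoter of CHAC1 is shown because it holds the element that C/EBP and ATF proteins bind together, TGATGCAA on either strand. The stretch covers the 250 bases before the RefSeq start (chr15:40953221-40953470, GRCh38.p14, plus strand), with the match, here on the opposite strand, in capitals.
CHAC1: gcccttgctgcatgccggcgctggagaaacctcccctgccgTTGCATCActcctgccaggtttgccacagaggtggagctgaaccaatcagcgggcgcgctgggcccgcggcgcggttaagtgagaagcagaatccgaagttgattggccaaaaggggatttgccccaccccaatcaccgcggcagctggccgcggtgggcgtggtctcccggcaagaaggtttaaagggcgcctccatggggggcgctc
The element was found in the promoter windows (250 bases before to 50 after the start) of 1 of 15 higher genes with an entry, 0 of 64 lower genes and 0.413% of 8717 genes tested (0.866% of all 35116 promoters). Of 24 ATF4 targets that rose and had an entry, 1 held it, which was CHAC1.

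Several signalling and secreted genes were also among the 17. TGFB2, a ligand of the TGF-beta receptors, was at 0.746, 0.596 and 0.617 FPKM in controls and 2.43, 2.27 and 2.54 after knockdown, a log2 fold change of 1.74 ± 0.11 (SE, adjusted p = 7.482e-06). ANKRD1, a nuclear ankyrin protein and common readout of YAP and TEAD activity, was at 34.7, 32.7 and 30.8 FPKM in controls and 71.4, 67.5 and 67.6 after knockdown. For both genes every knockdown library lay above every control. Of 33 tested YAP and TGF-beta target genes, 16 rose and 6 fell (48.5% and 18.2%, against 20.9% and 18.5% of all genes, median 0.11). The matricellular genes CCN2 and CCN1 stood at 0.65 and 0.41. Of 28 ligands, receptors and regulators of the TGF-beta superfamily, 4 rose and 11 fell (14.3% and 39.3%, median -0.14). ID1, a target of BMP signalling that blocks basic helix-loop-helix factors, fell by 1.45, and the latent TGF-beta binding proteins LTBP4 and LTBP3 fell by 0.50 and 0.89.

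ANKRD1 carries TEAD motifs (GGAATG on either strand) in its promoter, shown for the 250 bases before its start (chr10:90921088-90921337, GRCh38.p14, minus strand) with the 2 matches in capitals.
ANKRD1: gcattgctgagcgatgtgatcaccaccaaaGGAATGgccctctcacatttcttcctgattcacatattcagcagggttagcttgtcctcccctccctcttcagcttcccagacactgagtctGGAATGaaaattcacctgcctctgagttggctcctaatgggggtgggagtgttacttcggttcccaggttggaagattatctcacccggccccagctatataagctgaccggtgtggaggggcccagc
TEAD letters were found in 2 of 15 promoters of higher genes, 11 of 64 of lower genes and 10.8% of the 8717, against 14.0% of all 35116 promoters.

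PPME1 had the highest mean FPKM over the 6 libraries of the 107 genes past the threshold, although DDIT4 stood above it in the controls. It encodes the methylesterase of the phosphatase PP2A and lies at chr11:74171289-74254703 (GRCh38.p14). It was at 223.6, 226.0 and 234.1 FPKM in controls and 515.2, 550.0 and 521.6 after knockdown, a log2 fold change of 1.21 ± 0.04 (SE, adjusted p = 2.189e-07). No library of either group came near the other group. Among the others, DOCK8, an exchange factor for CDC42, rose from 2.08, 2.32 and 2.28 FPKM to 5.90, 5.65 and 5.55. MIR503HG, the host transcript of miR-503, rose by 1.47, CALHM4 by 1.38, LINC00882 by 1.19, the protease inhibitor SLPI by 1.07 and LOC105373193 by 1.04 on the log2 scale. LOC105373193 rested on few reads, 10, 9 and 8 in controls and 13, 22 and 25 after knockdown. Its log2 fold change ran from 0.65 to 1.33 over the settings tried. VLDLR-AS1 rose by 1.23 while VLDLR, the lipoprotein receptor beside it, fell by 0.51, and since use of strand in counting is not stated their reads cannot be told apart. Histone genes H2BC11 and H2BC4 rose by 1.20 and 1.12. In the histone list, which holds H2BC4 and not H2BC11, 10 of 17 tested genes rose and 2 fell (median 0.25). Those are 58.8% and 11.8%, against 20.9% and 18.5% of all genes. Among those that rose were H1-2 at 0.63, H2BC12 at 0.74 and H2AC6 at 0.95. Copies of these genes are nearly identical, and counts may be split between them. SMIM11 had a log2 fold change of 2.18 that 1 library carried, with 7, 12 and 16 reads in controls and 23, 61 and 211 after knockdown, and its adjusted p of 0.01657 became 0.05731 without control replicate 1 and 0.08401 without the filter. Without knockdown replicate 3, the library that carried it, SMIM11 fell under the filter and was not tested.

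**Figure D2:**
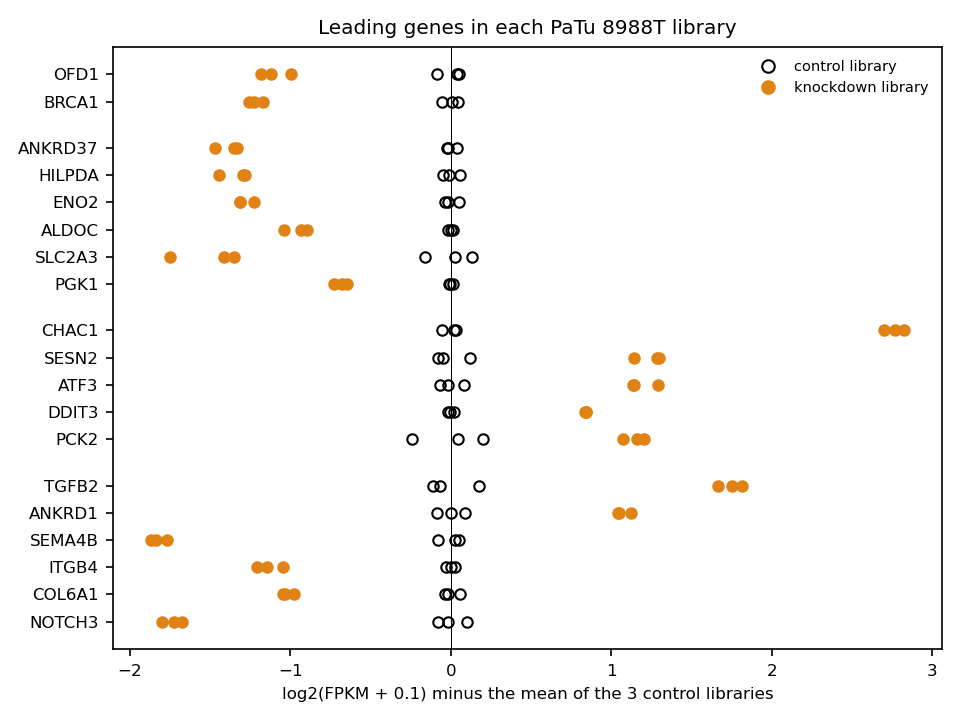
Value of each gene in each PaTu 8988T library, as log2(FPKM + 0.1) minus the mean of the 3 controls (x), with open circles for control and filled circles for knockdown libraries. In all 19 genes the 3 knockdown libraries lie together and apart from the 3 controls, with CHAC1 at 2.76 farthest to the right and SEMA4B at -1.82 lowest by its mean.

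Genes of oxygen and glucose use fell almost throughout. Of 36 tested hypoxia-inducible and glycolysis genes, 34 fell by adjusted p (94.4%, against 18.5% of all genes), 1 rose and 1 did not pass. The list was chosen with earlier results of these data known, so its share is a description and not a test. The median log2 fold change was -0.60, and the list's median stood at -0.61, -0.57 and -0.60 in the 3 knockdown libraries against -0.01, -0.01 and 0.02 in the controls. ANKRD37, a target of hypoxia-inducible factor, was at 32.98, 32.86 and 34.21 FPKM in controls and 11.98, 13.21 and 13.00 after knockdown. HILPDA, which restrains lipolysis at lipid droplets, was at 23.5, 22.9 and 24.7 FPKM and then 9.69, 8.64 and 9.60. ENO2, a glycolytic enolase, was at 86.4, 85.5 and 90.9 FPKM and then 35.2, 37.4 and 35.2. None of these groups overlapped, and the log2 fold changes were -1.38, -1.34 and -1.28 (SE 0.05, 0.06 and 0.04, adjusted p at or below 8.682e-07).

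Among glucose transporters, SLC2A3 fell from 4.85, 4.48 and 3.94 FPKM to 1.67, 1.60 and 1.24, and SLC2A1 fell by 0.43 on the log2 scale. Along glycolysis, the aldolase ALDOC fell from 472.3, 467.1 and 476.1 FPKM to 229.2, 253.4 and 247.0 and phosphoglycerate kinase PGK1 from 305.9, 304.9 and 309.5 to 185.5, 196.1 and 192.2. Lactate dehydrogenase LDHA fell by 0.35. Past 2-fold were also P4HA2, which hydroxylates collagen prolines, and LOX, which cross-links collagen, at -1.01 and -1.05. NDRG1, a stress-induced cytoplasmic protein, fell by 0.72 and VEGFA, the angiogenic growth factor, by 0.30. INSIG2, which holds the SREBP escort in the endoplasmic reticulum, fell by 0.98. The 1 gene that rose was ADM, the vasodilator adrenomedullin, from 50.09, 50.03 and 51.09 FPKM to 78.21, 81.09 and 79.39. EGLN1, the oxygen-sensing prolyl hydroxylase, had a log2 fold change of -0.01. Transcripts of the factors themselves, looked up after the list was seen, differed. HIF1A was at 61.6, 65.9 and 61.6 FPKM in controls and 71.3, 61.4 and 66.7 after knockdown (log2 fold change 0.07, adjusted p = 0.3109, and 0.13 with 0.04808 without knockdown replicate 2). ARNT had a log2 fold change of 0.04 (adjusted p = 0.5107), and EPAS1 fell from 2.280, 2.566 and 2.378 FPKM to 1.735, 1.665 and 1.495. CA9, a widely used hypoxia marker, lay under the filter in this line at 0.0734 to 0.158 FPKM in controls and 0 to 0.0745 after knockdown.

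Promoters of 3 members that fell are shown because they carry the core of the hypoxia response element, ACGTG, here in capitals on either strand, with overlapping matches where both strands read the same letters. Each stretch is the 250 bases before the RefSeq start in GRCh38.p14. They are ANKRD37 (chr4:185396591-185396840, plus strand, 3 matches), ALDOC (chr17:28576896-28577145, minus strand, 3 matches) and PGK1 (chrX:78103998-78104247, plus strand, 2 matches).
ANKRD37: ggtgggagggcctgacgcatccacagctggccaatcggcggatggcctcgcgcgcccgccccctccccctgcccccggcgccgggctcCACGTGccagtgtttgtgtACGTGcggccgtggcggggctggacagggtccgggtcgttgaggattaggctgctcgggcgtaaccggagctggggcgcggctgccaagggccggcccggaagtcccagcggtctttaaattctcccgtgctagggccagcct
ALDOC: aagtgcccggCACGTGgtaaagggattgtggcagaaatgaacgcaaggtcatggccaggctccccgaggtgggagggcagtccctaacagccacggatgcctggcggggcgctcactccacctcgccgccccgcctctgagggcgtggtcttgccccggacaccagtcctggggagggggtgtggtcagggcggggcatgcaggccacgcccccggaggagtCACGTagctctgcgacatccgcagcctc
PGK1: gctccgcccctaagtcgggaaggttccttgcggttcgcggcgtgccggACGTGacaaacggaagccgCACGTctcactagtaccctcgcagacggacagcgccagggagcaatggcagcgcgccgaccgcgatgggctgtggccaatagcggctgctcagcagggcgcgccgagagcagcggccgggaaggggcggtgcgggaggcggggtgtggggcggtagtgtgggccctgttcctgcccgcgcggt
Of 29 members of the list that fell and had an entry, 14 (48.3%) held the core in the 300-base window, against 27.9% of all 8717 genes tested. Of the 64 promoters of genes lower past 2-fold, 18 held it (28.1%), and so did 4 of 15 of the higher genes, against 21.4% of all 35116 promoters.

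**Figure D3:**
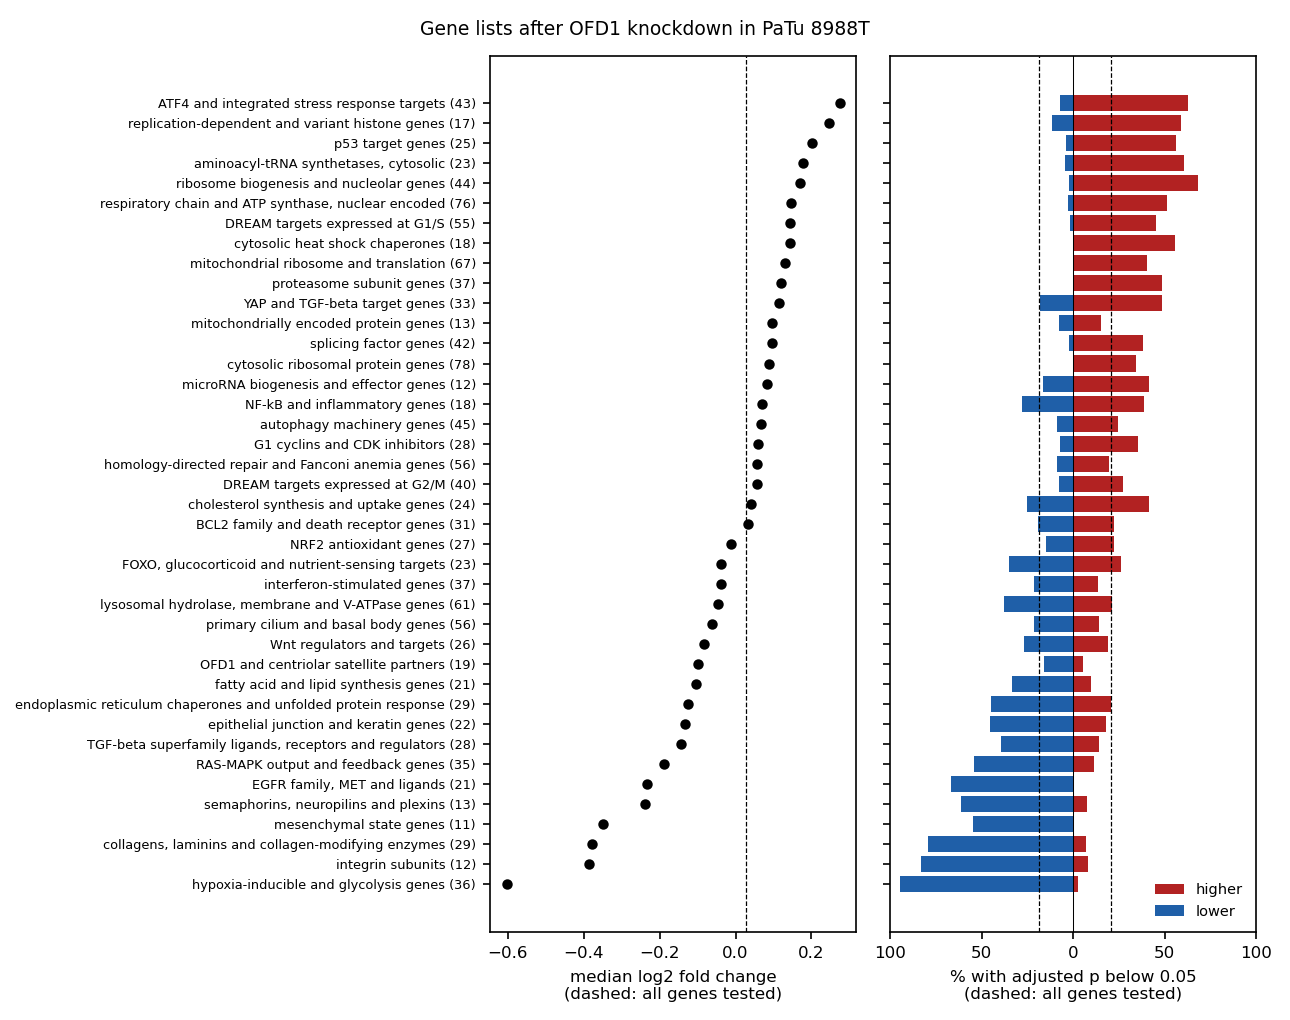
Median log2 fold change of the tested members of each gene list with at least 10 of them (left, number tested in brackets) and the percentage higher or lower at an adjusted p below 0.05 (right), with dashed lines at the values of all genes. The hypoxia-inducible and glycolysis list lies lowest at -0.60, and the ATF4 list highest at 0.27.

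DEPP1, a target of FOXO factors, had the largest fall of all genes. It was at 16.9, 15.8 and 16.7 FPKM in controls and 2.28, 2.92 and 2.86 after knockdown, a log2 fold change of -2.58 ± 0.09 (SE, adjusted p = 2.189e-07). The FOXO and nutrient-sensing list as a whole was split, with 6 of 23 members higher and 8 lower (26.1% and 34.8%, against 20.9% and 18.5% of all genes). CITED2, a transcriptional cofactor, rose by 0.45, the kinase SGK1 by 0.82 and KLF6 fell by 0.52. DDIT4, an inhibitor of mTORC1 induced by hypoxia, glucocorticoids and ATF4, was abundant and fell from 283.5, 278.1 and 296.0 FPKM to 129.8, 148.0 and 143.1.

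Matrix, adhesion and guidance genes fell together. By adjusted p, 18.5% of all genes fell and 20.9% rose. Of 12 tested integrin subunits, 10 fell and 1 rose (83.3% and 8.33%, median -0.39). ITGB4, the hemidesmosome subunit that binds laminin, was at 29.3, 30.0 and 30.4 FPKM in controls and 12.9, 14.4 and 13.5 after knockdown, and ITGA3, ITGA2 and ITGA5 fell by 0.55, 0.92 and 0.48. ITGAE was the subunit that rose, by 0.28, a call lost without control replicate 2 or 3 or knockdown replicate 1 or 3 (0.20 to 0.29). Of 29 collagens, laminins and collagen-modifying enzymes, 23 fell and 2 rose (79.3% and 6.9%, median -0.38). COL6A1, a chain of collagen VI, was at 11.4, 11.6 and 12.2 FPKM and then 5.67, 5.92 and 5.64, the prolyl hydroxylase P3H3 fell by 1.03 and COL5A1 by 1.13. The 2 that rose, COL12A1 and LOXL4, had log2 fold changes of 0.19 and 0.37, and the call of COL12A1 was lost without control replicate 1 or 3 or knockdown replicate 1 or 3 (0.15 to 0.19). Of 13 semaphorins and plexins, guidance ligands and their receptors, 8 fell (61.5%) and 1 (7.69%), SEMA3E, rose by 0.54. SEMA4B was at 36.2, 39.7 and 38.9 FPKM in controls and 10.4, 11.2 and 10.6 after knockdown, a log2 fold change of -1.82 ± 0.05 (SE, adjusted p = 1.494e-07), and SEMA4G fell by 1.09.

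Receptors and outputs of growth factor signalling also fell. Shares are set against the 18.5% of all genes that fell and the 20.9% that rose. Of 21 receptor tyrosine kinases and ligands, 14 fell (66.7%) and 0 rose in limma (1 at an unadjusted p below 0.05). Their median was -0.23. The ligand PDGFB stood at -1.31 and the receptors MST1R and FGFR4 at -0.53 and -0.85. Of 35 RAS-MAPK output and feedback genes, 19 fell and 4 rose (54.3% and 11.4%, median -0.19). TMEM158, a RAS-induced surface protein, fell from 4.95, 5.53 and 5.32 FPKM to 1.62, 1.39 and 1.25, and SPRY1, a feedback inhibitor of receptor kinases, from 2.36, 1.97 and 2.43 to 0.862, 0.581 and 0.805. The AP-1 subunit FOSL1 fell by 0.76 while JUN rose by 0.45. Of 11 mesenchymal state genes, 6 fell (54.55%), among them galectin LGALS1 at -0.92 and vimentin at -0.40. In limma 0 of them rose (1 at an unadjusted p below 0.05). Of 22 epithelial junction and keratin genes, 10 fell and 4 rose (45.45% and 18.18%). CLDN1, a tight junction protein, stood at 0.53 and desmosomal DSG2 at -0.56. Of the 5 ductal markers tested, 4 fell. SOX9, the ductal transcription factor, went from 2.39, 2.14 and 2.35 FPKM to 0.765, 0.872 and 0.882, the mucin MUC1 fell by 1.06, and KRT18 and KRT8 each fell by 0.27.

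The rest of the 25 largest falls came from many functions. NOTCH3, a Notch receptor, fell from 2.19, 2.28 and 2.49 FPKM to 0.596, 0.657 and 0.631. PADI2, which converts arginine to citrulline in proteins, fell from 24.9, 26.9 and 26.2 FPKM to 7.37, 7.54 and 8.48. The log2 fold changes were -1.73 for both, and -1.77 for KCNN4, a calcium-activated potassium channel. Among receptors and surface proteins were PTGER1, a prostaglandin E2 receptor (-1.46), the ephrin EFNA3 (-1.45), the adhesion receptor ADGRG1 (-1.37) and the incretin receptor GIPR (-1.36). PRTN3, a serine protease known from neutrophils (-1.65), TNNT1, a troponin of slow muscle (-1.52), CLIC3 (-1.45), the elastic fibre protein EFEMP2 (-1.42) and the vesicle protein SYNGR3 (-1.32) fell as well. Further names were the secreted proteins C1QL4 (-1.46) and ENHO (-1.33), and LOC107985303 (-1.44). UPK1A-AS1 fell by 1.54 and UPK1A, the uroplakin gene it overlaps, by 1.23, as did SLCO4A1 by 1.30 and SLCO4A1-AS1 by 1.03, and without stated use of strand the members of these pairs cannot be told apart. Elsewhere past 2-fold were HMGA2, an oncofetal chromatin protein (-1.19), the Wnt deacylase NOTUM (-1.22) and the CDK inhibitor CDKN1C (-1.09). So were the adhesion molecule ICAM1 (-1.28), the pro-apoptotic BIK (-1.07) and the metallothionein MT1F (-1.16), whose paralogs are close in sequence. Over the settings tried, their smallest changes were -0.71, -0.64, -0.67, -0.90, -0.96 and -0.65 in that order, all inside 2-fold. MT1F rested on 22, 36 and 29 reads in controls and 16, 7 and 14 after knockdown.

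Genes of the cell cycle did not fall as groups in PaTu 8988T, in lists chosen with earlier results of these data known. Of 55 DREAM targets expressed at G1/S, 25 rose and 1 fell (45.45% and 1.82%, median 0.14). Of 40 expressed at G2/M, 11 rose and 3 fell (27.5% and 7.5%, median 0.06). Among all genes 20.9% rose and 18.5% fell. BRCA1, which the paper counts among DREAM targets, is in neither list, and it fell by 1.22. E2F1 was at 27.4, 28.7 and 29.3 FPKM in controls and 39.3, 40.5 and 40.7 after knockdown, and the replication clamp PCNA at 144.2, 139.4 and 134.4 and then 173.0, 169.9 and 173.2. CKS2 and NDC80, which act in mitosis, had log2 fold changes of 0.24 and 0.30. The member of the G1/S list that fell was LIG1, a DNA ligase, at -0.15. Those of the G2/M list were CENPF, TPX2 and ANLN at -0.28, -0.16 and -0.15. The call of LIG1 was lost without control replicate 1 or knockdown replicate 3 (-0.14 and -0.15), and that of ANLN without any 1 control (-0.15 to -0.14). Of 28 G1 cyclins and CDK inhibitors, 10 rose and 2 fell (35.7% and 7.14%), with the inhibitor CDKN2B at 0.79. In the 56 tested genes of homology-directed repair and Fanconi anemia, BRCA1 stood alone past 2-fold, and the median was 0.06. Of them 11 rose (19.6%, near the 20.9% of all genes) and 5 fell (8.93%, against 18.5%). The members next to it by p were RBBP8 at 0.37, XRCC3 at 0.29 and FANCL at 0.50, all higher.

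Large groups of housekeeping genes shifted upwards by small amounts. Their shares that rose ran from 34.6% for cytosolic ribosomal proteins to 68.2% for ribosome biogenesis. Of all genes tested, 20.9% rose and 18.5% fell by adjusted p. Among genes of higher level more rose in general, with 1937 higher and 1240 lower under the filter at 5 FPKM. How far the level of these lists accounts for their shift was not tested. Ribosome biogenesis genes rose for 30 of 44 members and fell for 1 (median 0.17), nuclear-encoded respiratory chain genes for 39 of 76 with 2 falling (median 0.15), and mitochondrial ribosome genes for 27 of 67 with 0 falling (median 0.13). COX7C, a cytochrome oxidase subunit, went against its list and fell from 428.9, 410.4 and 406.6 FPKM to 247.6, 260.6 and 261.4. Proteasome subunits rose for 18 of 37, heat shock chaperones for 10 of 18, splicing factors for 16 of 42 with 1 falling, and cytosolic ribosomal proteins for 27 of 78, and of the proteasome, heat shock and ribosomal protein lists 0 members fell. The counts of 0 are from limma, and no member of these 4 lists was lower at an unadjusted p below 0.05 either. Chaperones of the endoplasmic reticulum leaned the other way, with 6 of 29 higher and 13 lower. Its oxidase ERO1A fell by 0.86, while HERPUD1 and XBP1, which the unfolded protein response induces, rose by 0.55 and 0.49.

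Ciliary genes moved little and in both directions. Of 56 primary cilium and basal body genes, 8 rose and 12 fell (14.3% and 21.4%, against 20.9% and 18.5% of all genes), and the members ranged from -0.68 to 0.59 on the log2 scale. The kinesin subunit KIF3A fell from 3.98, 4.17 and 3.66 FPKM to 2.79, 2.04 and 2.50, while the transport proteins IFT57 and WDR35 rose by 0.40 and 0.39 and TMEM67, a transition zone protein, fell by 0.32. Among 19 tested satellite partners of OFD1, 3 fell, OFD1 included, and 1 rose (15.8% and 5.26%, against 18.5% and 20.9% of all genes). Of 9 Hedgehog pathway genes tested, 4 fell and 1 rose (44.4% and 11.1%). They were CDON, the receptor PTCH1, GPR161 and the transducer SMO at -0.60, -0.39, -0.30 and -0.25, and HHAT at 0.38. GPR161 lost its call without control replicate 3 (-0.26), and HHAT without control replicate 2 or knockdown replicate 3 (0.36 and 0.33). GLI1, GLI2 and GLI3 lay under the filter. Of 26 Wnt genes, 5 rose and 7 fell (19.2% and 26.9%, against 20.9% and 18.5% of all genes). Among those that fell were the receptor FZD7 at -0.66 and the inhibitor NKD2 at -0.69.

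Immune, redox and lipid genes were mixed, and several of their shares lay near those of all genes (20.9% higher and 18.5% lower). Of 37 interferon-stimulated genes, 5 rose and 8 fell, with HLA-B at -0.49, IFIT1 at -0.53 and HLA-E at -0.28, the HLA genes being close paralogs. Of 18 NF-kB and inflammatory genes, 7 rose and 5 fell, with the chemokine CXCL2 at 0.79 and LTB at -0.88. Of 27 NRF2 antioxidant genes, 6 rose and 4 fell (22.2% and 14.8%), led by heme oxygenase HMOX1 at -0.72. Of 24 cholesterol genes, 10 rose and 6 fell, with INSIG1, which retains SREBP precursors, at 0.38, and of 21 fatty acid and lipid genes, 2 rose and 7 fell, with the desaturase SCD at -0.56. Autophagy genes rose for 11 of 45 and fell for 4 (24.4% and 8.89%), lysosomal genes rose for 13 of 61 and fell for 23 (21.3% and 37.7%), and BCL2 family and death receptor genes rose for 7 of 31 and fell for 6 (22.6% and 19.4%).

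The changes were then set beside those of PANC-1 and MIA PaCa-2, each against its own controls. Only changes within a line were compared here and not levels, since the gene lengths used for FPKM differed between columns of the lines for many genes. Over 9083 genes tested in all 3 lines, the change in PaTu 8988T differed from that in PANC-1 by more than 1 on the log2 scale, at an adjusted p below 0.05, for 392 genes (4.32%), with 297 above (3.27%) and 95 below (1.05%). From MIA PaCa-2 it differed for 770 genes (8.48%), 385 above and 385 below (4.24% each). This fit uses a single estimate of the spread for all lines. Control replicate 2 of MIA PaCa-2 read differently from the other controls in some genes. Its controls had BRCA1 at 10.45, 7.22 and 10.88 FPKM and HIF1A at 86.4, 51.1 and 85.2. VIM was closer, at 3476, 3586 and 3475. The weight of that library in these counts was not tested. Spearman's rho of the changes across genes was 0.32 with PANC-1 (9593 genes) and -0.07 with MIA PaCa-2 (9647 genes), as descriptions, since genes are not replicates.

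Of the 90 genes lower in PaTu 8988T, 58 were tested in PANC-1, where 19 were lower past the same threshold (4.84% of all genes there) and 1 was higher (1.75%). LOX was that gene, at 1.04 in PANC-1 and -1.05 in PaTu 8988T, a difference that was not tested since LOX lay under the filter in MIA PaCa-2. In MIA PaCa-2 58 were also tested, of which 4 were lower (3.68% of all genes there) and 12 higher (4.07%). In the joint fit 43 of the 90 could be compared, and 13 fell further in PaTu 8988T than in PANC-1 and 29 further than in MIA PaCa-2, past the same limits. In either direction 15 and 30 differed. Of all genes compared, 1.05% and 4.24% had a change below that in PANC-1 and in MIA PaCa-2. The 90 were picked for their fall in these same PaTu 8988T libraries, which favours a further fall there. Of the 17 higher genes, 5 of 10 tested were also higher in PANC-1 and 4 of 7 in MIA PaCa-2. Past the threshold in the same direction in all 3 lines were 6 genes. They were ATF3, CHAC1 and SESN2 upwards and B4GALNT1, a ganglioside synthase, BRCA1 and LRRC58 downwards.

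**Figure D4:**
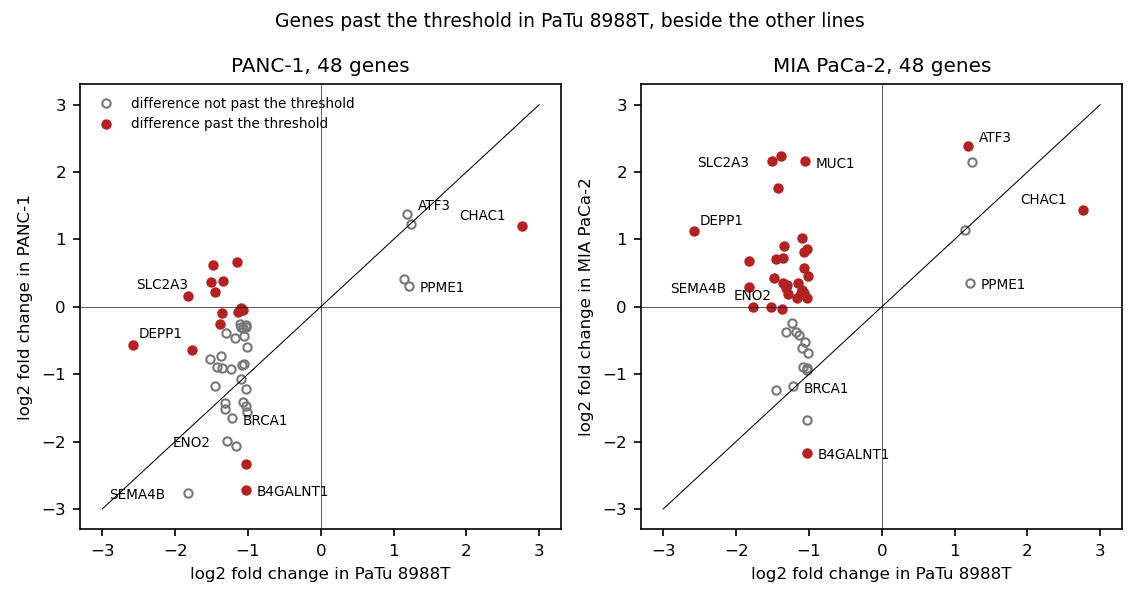
Log2 fold change in PaTu 8988T (x) against that in PANC-1 (left, y) and MIA PaCa-2 (right, y) for the 48 genes past the threshold in PaTu 8988T that all 3 lines tested, with the diagonal as equal change and red for a difference past the threshold. Many genes that fell in PaTu 8988T lie above 0 in MIA PaCa-2, and CHAC1 lies below the diagonal in both panels.

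CHAC1 rose further in PaTu 8988T than in the other lines, by 1.57 over PANC-1 and 1.33 over MIA PaCa-2 on the log2 scale, and ATF3 rose less than in MIA PaCa-2, by a difference of -1.19. OFD1 itself fell by 1.07 in PANC-1 and 0.61 in MIA PaCa-2, and BRCA1 by 1.66 and 1.18, and no difference of these from PaTu 8988T exceeded 1. The difference was -0.49 for OFD1 against MIA PaCa-2 (adjusted p = 0.01934) and 0.44 for BRCA1 against PANC-1 (adjusted p = 0.0448). The hypoxia-inducible and glycolysis list was chosen with earlier results of these data known, so its counts here are descriptions. Its medians were -0.60 in PaTu 8988T, -0.34 in PANC-1 and 0.72 in MIA PaCa-2. By adjusted p alone, 33 of 34 members compared had a lower change in PaTu 8988T than in MIA PaCa-2 (21.8% of all genes), and 13 a lower and 3 a higher change than in PANC-1 (17.1% and 18.7% of all genes). ATF4 targets had medians of 0.27, 0.34 and 0.86 in PaTu 8988T, PANC-1 and MIA PaCa-2.

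The cell cycle lists separated PaTu 8988T from both lines. They were chosen with earlier results of these data known, so their counts are descriptions and not a test. DREAM targets at G1/S had medians of 0.14 in PaTu 8988T, -0.82 in PANC-1 and -0.63 in MIA PaCa-2, and those at G2/M 0.06, -1.10 and -0.63. At G1/S, 49 of 55 had a higher change in PaTu 8988T than in PANC-1 and 45 than in MIA PaCa-2 (18.7% and 31% of all genes). At G2/M it was 39 of 40 and 34 of 40. In both lists 0 members had a lower change than in either line, by limma at an adjusted p or an unadjusted p below 0.05. Cytosolic ribosomal protein genes went the other way, with medians of 0.09, 0.60 and 0.42 in PaTu 8988T, PANC-1 and MIA PaCa-2. Of 78 members, 71 had a lower change than in PANC-1 and 57 than in MIA PaCa-2 (17.1% and 21.8% of all genes). Primary cilium genes had medians of -0.06 in PaTu 8988T, 0.24 in PANC-1 and 0.30 in MIA PaCa-2, and of 54 members compared, 20 had a lower and 1 a higher change than in PANC-1 (17.1% and 18.7% of all genes) and 26 a lower and 6 a higher change than in MIA PaCa-2 (21.8% and 31% of all genes).

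**Figure D5:**
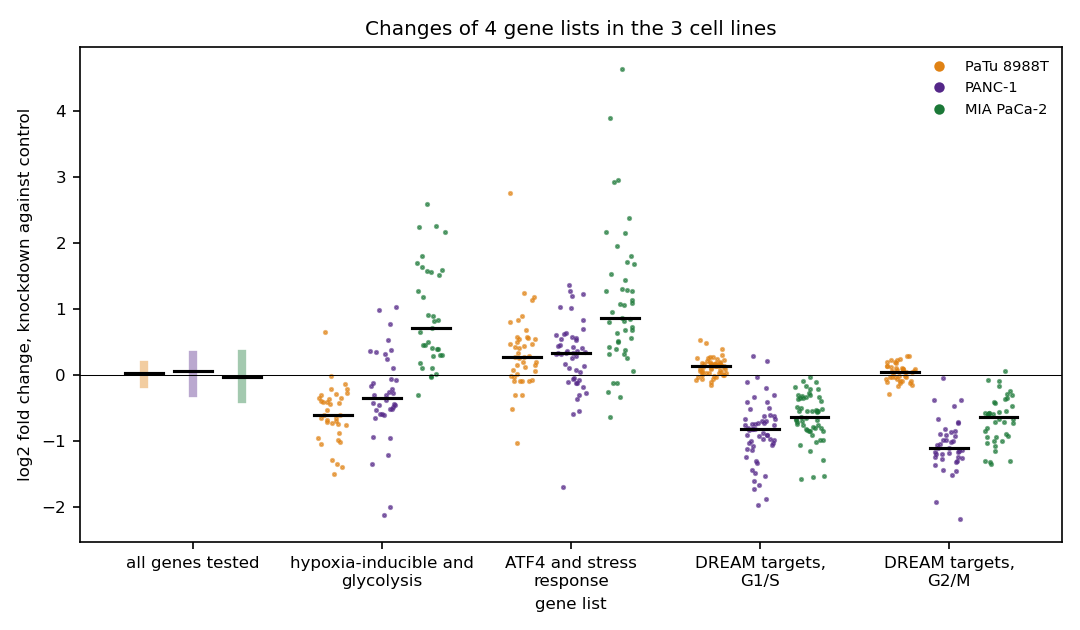
Log2 fold change of each tested member (points, y) of 4 gene lists (x) in PaTu 8988T, PANC-1 and MIA PaCa-2, with black bars at medians and, for all genes, shaded bars from the lower to the upper quartile. The DREAM lists lie near 0 in PaTu 8988T and below 0 in the other lines, and the hypoxia-inducible list lies at -0.60 in PaTu 8988T and 0.72 in MIA PaCa-2.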

How the data were processed

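RNA-seq of 6 PaTu 8988T libraries was compared, with 12 libraries of PANC-1 and MIA PaCa-2 beside them. The authors mapped reads with HISAT2 and counted them with HTSeq-count, and deposited FPKM values per gene, scaled by gene length and by reads counted in the library. The submitters' processing notes name hg38 beside GRCm38 and mm10 without roles, versions of the tools and use of strand are not given in the sources used here, and the labels and the methods give different RNA extraction and library kits.

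Whole reads were recovered from the FPKM values of all 21498 genes above 0 in PaTu 8988T (lengths taken as whole within 0.02), which gave the depth per library. Intervals of counting were not used, since the spread between libraries enters each test. Genes with a mean of at least 1 FPKM over the 6 libraries were kept, and log2(FPKM + 0.1) went into a linear model (lmFit, then eBayes with trend, limma 3.58.1, R 4.3.3). P-values were adjusted by Benjamini-Hochberg over all 10698 genes. A fold change is on the log2(FPKM + 0.1) scale and understates changes of low genes. Differences between lines came from an interaction term in 1 fit over the 9083 genes that passed the filter in every line. The study's own threshold, an adjusted p below 0.05 and more than 2-fold, was used, here with limma on FPKM. On simulated data made from these libraries the fit was checked before use.

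Named were OFD1, BRCA1, every higher gene, the 25 lowest genes without overlap, of each list the 4 with the smallest p and those past 2-fold, and the 8 largest differences from each line. Further names were chosen after their values were seen, namely those just at the fold limit, PGK1, NDRG1, ADM, INSIG2, EGLN1, LDHA, SLC2A1, HIF1A, ARNT, EPAS1, ATF4, TRIB3, SLC7A5, PSAT1, ASNS, CA9, CCN1, VLDLR, UPK1A, SLCO4A1, SLCO4A1-AS1, LRRC58, ITGAE, COL12A1, LOXL4, LIG1, CENPF, TPX2, ANLN, HHAT, UCP2, PAAF1, COA4, P4HA3 and C2CD3. Members of the 52 lists, and the lists themselves, were chosen with earlier results of these data known, and a gene may stand in several lists. Promoters came from RefSeq (GRCh38.p14). Alternatives were a pseudocount of 1, no filter, a filter at 5 FPKM, median centring, the replicate number as a block and leaving out each library. The shRNA sequences were not used here. Some genes that the rule names are not reported here.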

Additional observations from a re-analysis of the deposited data

Results flagged for a closer look

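The change after OFD1 knockdown differed between lines, by an interaction term in limma, for 29 pairs of a named gene and another line. Most of these genes were named for their large change in PaTu 8988T or for the difference itself, so the choice favours such differences. Over all 9083 genes compared, 4.32% differed from PANC-1 and 8.48% from MIA PaCa-2 past the same limits. Differences are the log2 fold change in PaTu 8988T minus that in the other line. Against PANC-1 they were -1.12 for ANKRD37, -2.02 for DEPP1, -1.72 for HILPDA, -1.66 for ID1, -1.13 for KCNN4, -1.87 for SLC2A3, -1.26 for SOX9, -2.11 for SPRY1, -1.98 for TMEM158 and -1.81 for the zinc finger gene ZNF467. CHAC1 at 1.57 and B4GALNT1 at 1.69 differed the other way, the latter with changes of -2.71 in PANC-1 and -1.02 in PaTu 8988T.

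Against MIA PaCa-2 the largest difference was -3.71, for DEPP1. Hypoxia-inducible genes differed by -3.62 for ANKRD37, -2.25 for HILPDA and -3.67 for SLC2A3. Further differences were -3.22 for MUC1, -3.19 for EFEMP2, -2.12 for SEMA4B and -2.16 for EFNA3. TMEM158 differed by -2.50, GIPR by -2.09, SPRY1 by -1.90, KCNN4 by -1.78, SOX9 by -1.70, TNNT1 by -1.51 and ADGRG1 by -1.34. ATF3 differed by -1.19 and CHAC1 by 1.33. The cause of these differences was not tested. No group held enough libraries for a check of single libraries that stand apart.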

How the results depend on the processing

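Counts moved with the treatment of low values. With a pseudocount of 1, 11 genes were higher and 23 lower past 2-fold, and the change differed from PANC-1 for 256 and from MIA PaCa-2 for 487 genes. Without a filter these were 45, 192, 849 and 1387, and with a filter at 5 FPKM 7, 23, 214 and 415, with 1240 lower by adjusted p alone. Leaving out 1 library gave 1461 to 2494 genes higher by adjusted p alone, the lowest without control replicate 2. OFD1 lay between -1.15 and -0.68 under the settings that tested it, the latter with a pseudocount of 1, and was not tested with the filter at 5 FPKM. With the replicate block 17 genes were higher and 90 lower, and 2019 and 1832 by adjusted p alone. The numbers did not pair the libraries (correlations of deviations 0.13, -0.105 and -0.028). Of 247 other genes examined, 18 lost a call under at least 1 setting, and the direction turned in EGLN1 alone (0.0234 without knockdown replicate 2, with single libraries left out giving -0.04 to 0.0234), HIF1A passed the threshold there, and COA4 without control replicate 3 (0.16). The filter sets how many genes of low level are tested, and the cause of the other shifts was not tested. Depth limits the low genes, such as SMIM11 at 7 to 211 reads.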

Other observations

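C2CD3, a centriole protein needed for distal appendages, is the gene next to PPME1 (chr11:74012718-74171002 and chr11:74171289-74254703, GRCh38.p14). It was at 10.1, 9.69 and 9.83 FPKM in PaTu 8988T controls and 15.9, 15.0 and 15.9 after knockdown, a log2 fold change of 0.65 ± 0.05 (SE, adjusted p = 1.208e-05, limma). The groups did not overlap, and the changes were 0.38 in PANC-1 and -0.01 in MIA PaCa-2. Other neighbours did not share a direction. UCP2, a mitochondrial carrier, had a log2 fold change of 0.17 and COA4 of 0.12 (adjusted p = 0.1022, limma). PAAF1 was lower by its log2 fold change of -0.20 (adjusted p = 0.03198, limma), a call lost with the replicate block and without any 1 library other than knockdown replicate 2 (-0.21 to -0.19). P4HA3, whose span overlaps that of PPME1, lay under the filter at 0.912, 0.642 and 0.838 FPKM in controls and 0.288, 0.358 and 0.256 after knockdown.

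PPME1 itself stood higher in PaTu 8988T than in the other lines before knockdown. The same gene length, 2747 bases, was recovered for all 3 lines, so its levels can be set side by side. Controls were at 223.6 to 234.1 FPKM in PaTu 8988T, 34.4 to 36.2 in PANC-1 and 33.7 to 38.8 in MIA PaCa-2. Its log2 fold changes were 1.21, 0.32 and 0.35 in that order.

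Across the 10698 genes of PaTu 8988T, Spearman's rho of the log2 fold change was -0.10 with gene length and 0.17 with mean FPKM, given as descriptions since genes share their libraries.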
